A study of Drosophila melanogaster with 23 samples.

Results

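The Tweedle and Osiris genes encode 2 insect gene families of the cuticle, and their promoter activity was followed here through the embryogenesis of Drosophila melanogaster. Members were the rows of the gene table whose FlyBase identifier carries a symbol that begins with Twdl, or with Osi and a number, together with Tb. This rule found 40 of the 10622 gene rows, 23 of the Tweedle family (Tb included) and 17 of the Osiris family. A further 12 of the 52 symbols that fit the rule in the reference table had no row and were not analysed here. They are TwdlO, TwdlJ, TwdlS and TwdlR, and Osi1, Osi4, Osi8, Osi10a, Osi10b, Osi11, Osi21 and Osi22.

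Tweedle proteins are secreted, bind chitin and are built into the cuticle, the layered exoskeleton that epidermal cells lay down on their outer face. Dominant alleles of Tb (Tubby) and of TwdlD shorten and thicken the body of the larva. Osiris proteins are thought to reside in membranes of the endosomal system, are found in epithelia that make cuticle, and most of their genes form a run in the Triplo-lethal region of chromosome arm 3R, a locus that is lethal in both 1 and 3 copies. Some Osiris genes act in the maturation of tracheal tubes, and Osi23 is needed for the pores of the olfactory cuticle.

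Embryos of the strain y; cn bw sp were collected in 23 successive 1-hour windows, from 0-1 h to 22-23 h after egg laying, as whole embryos without dissection or treatment. Each window is 1 library, so no window has a replicate, and age is the only labelled difference between windows. Age goes with the library, so other differences between libraries, such as depth, cannot be told apart from it. RNA was assayed by RAMPAGE, which sequences the 5' ends of capped transcripts and groups them into transcription start site clusters (TSCs). Levels are given in RPM, the reads of a gene scaled to 1000000 reads in TSCs of that library. A transcript yields 1 such end whatever its length, so levels of different genes can be set side by side without a correction for length.

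The libraries held 286206 to 14705005 reads, with a median of 2664024, and 4 of them held fewer than 600000 (5-6 h, 12-13 h, 14-15 h and 22-23 h). The window labels were checked against genes of known stage. The early genes pgc, bcd, hb and prd were highest in the first 4 windows, in that order, en was highest at 6-7 h, and the late cuticle genes Edg78E and Ccp84Aa were highest at 18-19 h. All intervals below are at the 95% level and cover counting error only, since nothing here measures the variation between embryo collections.

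Both families had few reads in the first 8 h and their highest shares between 13 h and 16 h, under 1% for Osiris and over 3% for Tweedle genes. The windows before 8 h held 293 of the 39283 Osiris reads (0.746%) and 878 of the 402661 Tweedle reads (0.218%). The Osiris family took 0.00830% of reads at 8-9 h, and 0.0534%, 0.126% and 0.143% in the 3 windows from 10-11 h on. Its share was highest at 13-14 h, with 0.473% (Wilson interval 0.465 to 0.481%), and was 0.450% and then 0.298% in the following windows. It dropped to 0.0874%, 0.0176% and 0.00356% from 16-17 h to 18-19 h. Most Osiris reads thus came from the 3 windows between 13 h and 16 h. TMM library sizes adjust each library for the part of its reads taken by the most abundant genes. With these sizes the Osiris share was highest 1 window later, at 14-15 h, with 0.439% against 0.422% at 13-14 h. Whole embryos cannot show whether fewer cells made a transcript or whether each cell held less of it, and this holds for every level below.

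The Tweedle share was highest later and reached a larger value. With TwdlF counted, it stayed above that of the Osiris family in every window from 12-13 h on. The Tweedle family took 0.0640%, 0.167%, 0.704% and 1.83% of reads in the 4 windows from 11-12 h to 14-15 h. The highest Tweedle share was 3.27% at 15-16 h (Wilson interval 3.25 to 3.29%). The 4 windows that followed had 1.43%, 1.40%, 0.616% and 0.605%, and 0.0935% remained at 22-23 h. A single gene, TwdlF, made up 70.9% of the Tweedle reads at 15-16 h. Without TwdlF the family took 0.951% in that window, and 1.14% and 1.30% in the following ones, the last being its highest value. Reads of the Tweedle family were 0.506 times those of the Osiris family at 11-12 h, and 1.49, 11.0 and 175 times at 13-14 h, 15-16 h and 19-20 h. Without TwdlF they were 0.241, 0.357 and 0.862 times the Osiris reads at 12-13 h, 13-14 h and 14-15 h. They were 3.19 times the Osiris reads at 15-16 h, so from 12-13 h to 14-15 h the Tweedle share was the larger only with TwdlF.

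**Figure D1:**
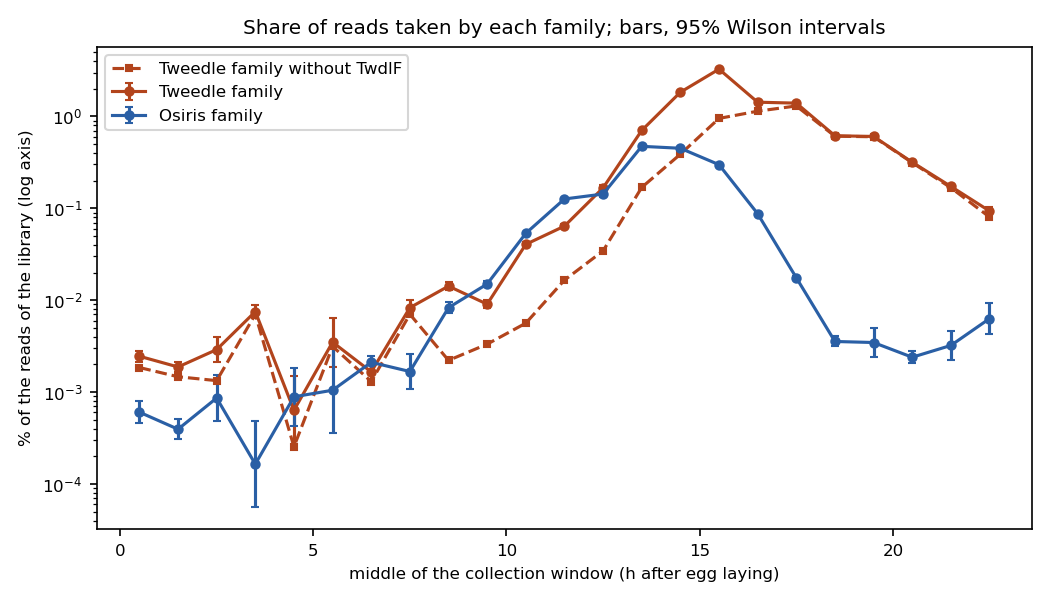
The share of the reads of each library taken by the Osiris family (blue), the Tweedle family (red) and the Tweedle family without TwdlF (dashed) is plotted on a log axis against the middle of the collection window, with 95% Wilson intervals as bars on the family shares. The Osiris share is highest at 13-14 h (0.473%) and the Tweedle share at 15-16 h (3.27%), and without TwdlF the Tweedle share is highest at 17-18 h (1.30%).

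Timing is described for the 32 members that reached 10 RPM on at least 10 reads, 20 Tweedle and 12 Osiris genes. Highest windows of the Osiris genes were 13-14 h for 4 (Osi3, Osi7, Osi17 and Osi24), 14-15 h for 6 (Osi6, Osi9, Osi14, Osi15, Osi19 and Osi20), 15-16 h for Osi18 and 16-17 h for Osi2. Highest windows of the Tweedle genes were 15-16 h for 4 (TwdlF, TwdlG, TwdlT and TwdlU), 16-17 h for 6 (Tb, TwdlD, TwdlE, TwdlQ, TwdlW and TwdlX) and 17-18 h for 6 (TwdlB, TwdlC, TwdlM, TwdlV, TwdlY and Twdlbeta). The last were TwdlL, TwdlN and TwdlP at 19-20 h and Twdlalpha at 21-22 h. So 10 of 12 Osiris genes were highest at 13-15 h, a range that held 0 of 20 Tweedle genes and 7.06% of the 8140 genes of the whole table that pass the same rule. The following 3 h, 15-18 h, held 16 of 20 Tweedle genes, 2 of 12 Osiris genes and 4.67% of the 8140 genes. Other cuticle genes that pass the rule were 36 Cpr genes and 24 genes of a list for chitin synthesis, cuticle assembly and tanning. Of these, 0 and 5 were highest at 13-15 h, and 16 and 8 at 15-18 h. Neither range was set in advance. Under TMM scaling 3, 5, 2 and 2 Osiris genes were highest in the windows from 13-14 h to 16-17 h. Tweedle genes were then highest at 15-16 h (4), 16-17 h (5) and 17-18 h (8), with TwdlP, TwdlN and Twdlalpha at 19-20 h, 20-21 h and 21-22 h.

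The mean time weighted by RPM gave the same order. Its median was 14.2 h over the Osiris genes (range 13.2 to 16.5 h) and 16.6 h over the Tweedle genes (14.8 to 20.5 h), beside 10.0 h over all 8140 genes. Over the Cpr genes the median was 18.2 h, and over the cuticle list 14.9 h. The Osiris and Tweedle ranges overlapped between 14.8 and 16.5 h. Osi15 (14.9 h) lay among the earliest Tweedle genes, TwdlT (14.8 h) and TwdlF (14.9 h). The latest Osiris gene, Osi2 (16.5 h), lay close to the Tweedle median of 16.6 h. Both families were active in short pulses, with a median of 3 windows at or above 50% of the maximum (1 to 4 in Osiris, 2 to 4 in Tweedle genes), against 7 over all genes. Other cuticle genes came close to this, with a median of 4 windows in the Cpr genes and 4 in the cuticle list. The 14-15 h library is shallow, with 593906 reads. Without the 4 libraries under 600000 reads, 7 Osiris genes were highest at 13-14 h, and 3 and 2 in the windows 15-16 h and 16-17 h, the windows of the Tweedle genes stayed as given, and the median mean times were 14.2 and 16.8 h.

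**Figure D2:**
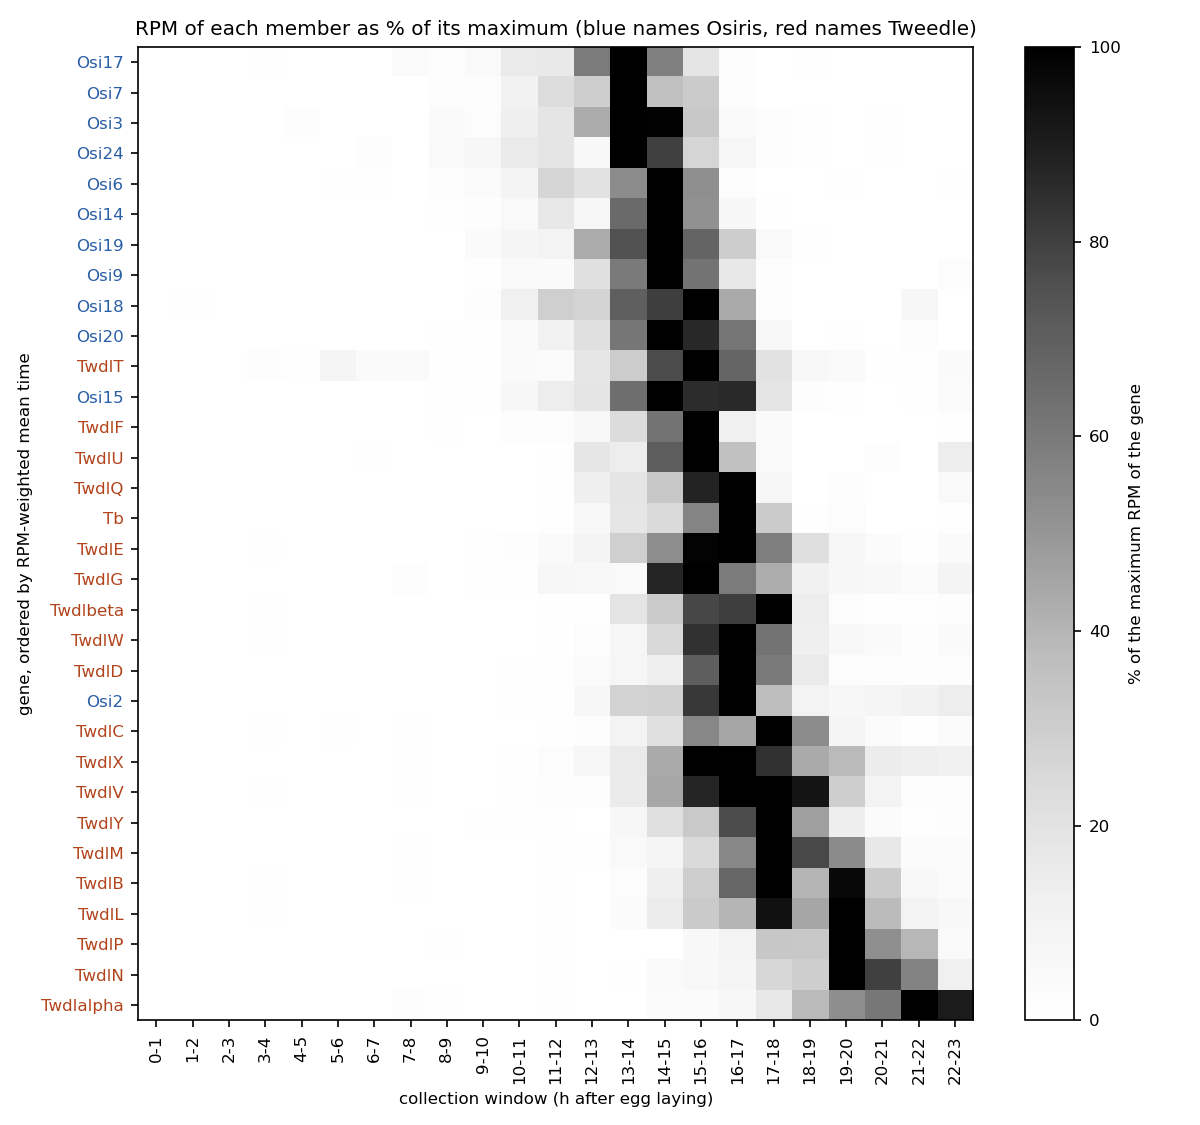
Each row is 1 of the 32 members with at least 10 RPM and 10 reads, ordered from top to bottom by its RPM-weighted mean time, each column is a collection window, and the shade gives the RPM as a percent of the maximum of that gene. Osiris genes (blue names) fill the top rows with maxima mostly at 13-15 h, and Tweedle genes (red names) follow from 15-16 h to 21-22 h, with Osi15 and Osi2 among them.

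Osi7 (FBgn0037414) and Osi6 (FBgn0027527) were the most abundant Osiris genes. Osi7 stood at 42.4, 66.3, 266, 568 and 746 RPM in the 5 windows from 8-9 h to 12-13 h. It was highest at 13-14 h with 2486 RPM (exact interval 2428 to 2546), and had 897, 769, 65.2 and 4.06 RPM in the next 4 windows. Among the 12 described Osiris genes it was the one with a single window above 50% of its maximum. Osi6 stood at 431, 324 and 871 RPM in the windows from 11-12 h to 13-14 h, was highest at 14-15 h with 1637 RPM (interval 1535 to 1743, on 972 reads), and had 852, 41.8 and 4.06 RPM afterwards. Both genes were thus close to their early level again by 17-18 h.

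Osi14 (FBgn0040279), Osi9 (FBgn0037416), Osi15 (FBgn0037424) and Osi20 (FBgn0037430) followed at lower levels. In the 5 windows from 13-14 h to 17-18 h, Osi14 had 507, 769, 399, 46.9 and 5.28 RPM. Osi9, one of the Osiris genes with a role in the tracheal tubes, had 219, 367, 228, 61.6 and 4.74 RPM in the same windows. Osi15, another of these, stayed high for longer, with 225, 350, 300, 301 and 65.7 RPM. Osi20 was between them, with 124, 204, 176, 125 and 11.4 RPM. Levels at 14-15 h rest on 121 reads for Osi20 and 457 for Osi14, and the interval of Osi15 there is 304 to 401 RPM. Under TMM scaling the highest window of Osi15 was 16-17 h and that of Osi20 was 15-16 h.

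Osi17 (FBgn0037427) was the earliest of the 32, with a mean time of 13.2 h, and Osi2 (FBgn0037410) was the latest Osiris gene. Osi17 had 43.3, 72.9, 42.1 and 13.5 RPM from 12-13 h to 15-16 h. Osi2 had 57.2, 166, 203 and 76.0 RPM from 14-15 h to 17-18 h. Between 18 h and 23 h Osi2 remained at 14.1 to 28.9 RPM and was the most abundant Osiris gene in each of the windows from 17-18 h on. The other 4 described Osiris genes, Osi3, Osi18, Osi19 and Osi24, had maxima of 16.7 to 69.6 RPM.

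Among the Tweedle genes TwdlF (FBgn0037224) stood far above the rest. It had 475, 1325, 5350 and 14457 RPM in the windows from 11-12 h to 14-15 h, and was highest at 15-16 h with 23185 RPM (exact interval 23024 to 23347, on 77544 reads). The next 3 windows had 2880, 954 and 67.4 RPM. The next highest maximum of a Tweedle gene was 2912 RPM, of Twdlbeta.

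Twdlbeta (FBgn0033658), TwdlW (FBgn0038487), TwdlC (FBgn0039469) and TwdlM (FBgn0039434) were abundant 1 to 2 h later. In the 6 windows from 14-15 h to 19-20 h, Twdlbeta had 901, 2275, 2338, 2912, 409 and 69.3 RPM. TwdlW was highest earlier, with 690, 2316, 2769, 1728, 348 and 158 RPM in the same windows. TwdlC had 337, 873, 712, 1582, 847 and 127 RPM. TwdlM lasted longest of these, with 212, 621, 1414, 2549, 1974 and 1373 RPM, and still had 424 RPM at 20-21 h.

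TwdlN (FBgn0039441) and Twdlalpha (FBgn0052574) were the latest members. In the 6 windows from 17-18 h to 22-23 h TwdlN had 570, 663, 2214, 1765, 1254 and 268 RPM (interval of the highest 2111 to 2321), and it was the most abundant Tweedle gene in every window from 19-20 h. Twdlalpha had 10.2, 23.5, 32.1, 37.0, 61.0 and 55.2 RPM in the same windows, the highest on 55 reads (interval 46.0 to 79.4). The last 2 values of Twdlalpha differ by less than their counting error.

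Tb (FBgn0243586) and TwdlT (FBgn0029170) were among the early Tweedle genes. In the 6 windows from 13-14 h to 18-19 h Tb had 57.6, 79.1, 182, 325, 101 and 2.20 RPM (interval of the highest 311 to 340). TwdlT was highest 1 h before Tb, with 63.1, 157, 205, 138, 41.2 and 10.9 RPM. TwdlT also had 17.5, 8.08 and 7.54 RPM in the 3 windows from 5-6 h to 7-8 h, on 5, 54 and 9 reads. TwdlB and TwdlL each had high values on both sides of a lower one, with 869, 349 and 844 RPM for TwdlB and 655, 312 and 698 RPM for TwdlL at 17-18 h, 18-19 h and 19-20 h. TwdlL was highest at 17-18 h under TMM scaling. The other 9 described Tweedle genes had maxima of 38.3 RPM (TwdlU) to 883 RPM (TwdlE).

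**Figure D3:**
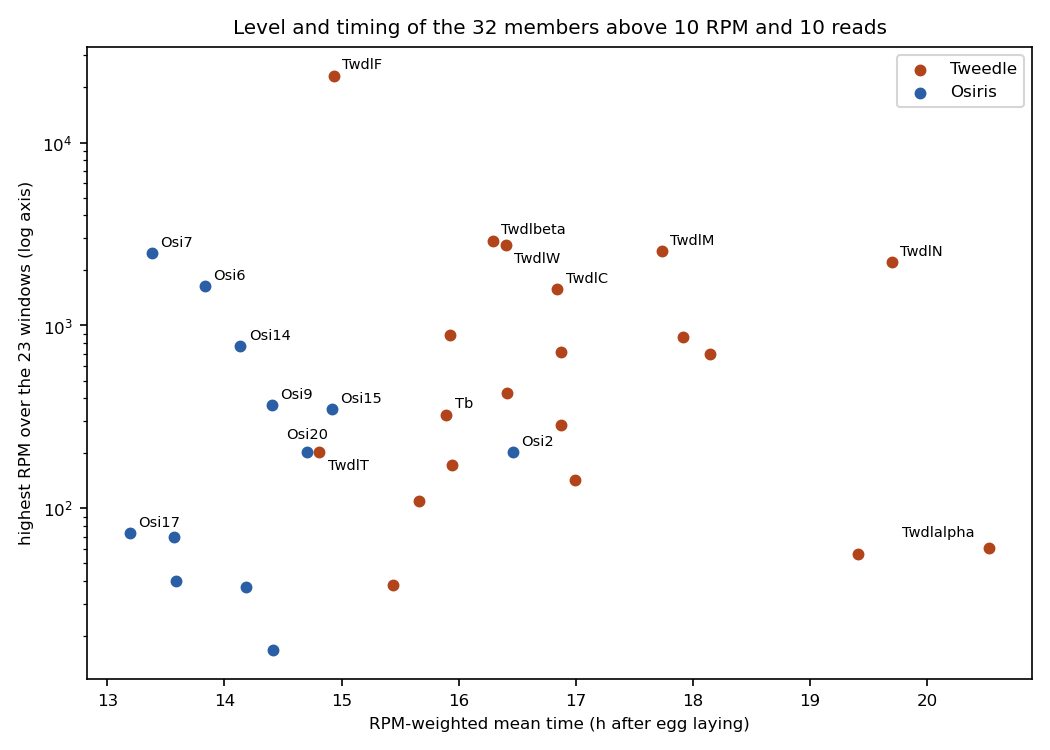
The highest RPM of each of the 32 members (log axis) is plotted against its RPM-weighted mean time in hours after egg laying, with the members described in full named. Osiris genes (blue) lie to the left, with Osi2 at 16.5 h the furthest right, and Tweedle genes (red) lie to the right and reach higher levels, up to 23185 RPM for TwdlF.

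The other 8 members with a row stayed under 10 RPM or 10 reads at their maximum. Osi16 had 13.5 RPM at its highest window, but on 8 reads. Highest values were 6.84 RPM for Osi5 (3 reads), 5.05 for Osi13 (3 reads), 2.28 for Osi12 (1 read) and 2.09 for Osi23 (7 reads). TwdlH reached 9.48 RPM (70 reads), TwdlZ 7.28 (43 reads) and TwdlK 1.22 (9 reads). A count of 0 allows up to 3 reads, which is 0.406 RPM in the deep library of 17-18 h but 6.84 and 7.88 RPM in the shallow ones of 12-13 h and 22-23 h.

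A few reads of the late genes were counted in the earliest windows. TwdlF had 6.05 and 4.08 RPM in the first 2 windows, on 50 and 60 reads, and Osi7 had 2.90 RPM in the first, on 24 reads. Per 10000 reads of the same gene in the other windows, the 0-1 h library held 3.87 reads of TwdlF, 5.39 of Twdlbeta and 17.8 of Osi7, with medians of 5.68 over the 23 Tweedle and 3.55 over the 17 Osiris members. The Tweedle share was also higher at 3-4 h (0.00751%) and 7-8 h (0.00829%) than at 4-5 h (0.000635%) or 6-7 h (0.00166%), while the Osiris share was 0.000165% at 3-4 h on 3 reads. The libraries had been barcoded, pooled and sequenced together, and the part of any reads from another window in these values was not tested.

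Change with time was tested for the 34 members with a mean of at least 1 RPM, in a limma fit of a smooth curve to log2(RPM + 1) across all 9538 genes that pass this filter. All 34 were called (adjusted p below 0.05, Benjamini-Hochberg), beside 92.2% of all genes tested, so the call does not set them apart. On the log2(RPM + 1) scale, which understates the change of low genes, the fitted range of TwdlF was 9.79 (SE 1.08, adjusted p = 1.9e-07). The fitted range of Osi7 was 9.59 (SE 1.01, adjusted p = 2.0e-09), that of TwdlN was 9.26 (SE 0.81, adjusted p = 1.0e-12) and that of Tb was 7.31 (SE 1.29, adjusted p = 1.0e-06), all from limma with Benjamini-Hochberg adjustment. These p-values are from the F test of the whole curve and do not test the range. The SE takes no account of the choice of the highest and lowest fitted windows from the same fit.

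Direction at each late step came from limma contrasts between neighbouring blocks of 3 windows, again over the 9538 genes. Windows of a block are successive ages and not replicates, so the error holds the change with age inside the blocks. Over all genes the median change was -0.03, -0.34, -0.29 and 0.03 on the log2 scale at the 4 steps from 8-11 h to 20-23 h, and TMM scaling moved it to between -0.18 and 0.07. Family medians below are therefore also given relative to the median of all genes.

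From 8-11 h to 11-14 h members of both families rose. Of the 14 Osiris genes tested, 11 were called higher, and of the 20 Tweedle genes 12, beside 7.87% of all genes. The Osiris count includes Osi5, on 5, 3 and 16 reads in the windows from 11-12 h to 13-14 h. Osi5 and Osi16 passed the filter narrowly, with means of 1.01 and 1.07 RPM that rest on the windows where they were high. The family medians were 2.89 for Osiris and 2.91 for Tweedle genes, or 2.92 and 2.94 relative to all genes. Osi15 rose by 3.81 (SE 0.91, limma adjusted p = 0.009) and Osi20 by 3.64 (SE 0.71, limma adjusted p = 0.0024), and TwdlM rose by 4.00 (SE 0.96, limma adjusted p = 0.011). Osi6 had a change of 3.09 (SE 1.02, limma adjusted p = 0.060) and TwdlF 3.47 (SE 1.11, limma adjusted p = 0.057), neither called, although Osi6 was called under TMM scaling (limma adjusted p = 0.046), and TwdlN had 0.91 and Twdlalpha 0.01. Of the other cuticle genes, 13 of 42 Cpr genes, which encode cuticle proteins with a chitin-binding Rebers and Riddiford domain, and 11 of 27 genes of a list for chitin synthesis, cuticle assembly and tanning were called higher. These counts rest on single windows: the Tweedle count was 1, 5, 7 and 3 without 8-9 h, 9-10 h, 12-13 h or 13-14 h, and the Osiris count was 2, 5 and 3 without 8-9 h, 9-10 h or 13-14 h. With a pseudocount of 0.1 RPM they were 6 and 3, and with all libraries thinned to the shallowest the Osiris count was 3. Under TMM scaling the Tweedle count was 8, as TwdlC, TwdlD, TwdlU and Tb lost the call, and the Osiris count was 12.

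From 11-14 h to 14-17 h the calls of the families differed. The edge between these blocks falls between 13-14 h and 14-15 h, the windows with the highest Osiris shares (0.473% and 0.450%). High Osiris values thus lie in both blocks, with 9 positive and 5 negative changes, and how far the counts depend on this edge was not tested. Of 20 Tweedle genes 18 were called higher, and of 14 Osiris genes 1, Osi2, beside 7.45% of all genes. Family medians were 3.78 for Tweedle and 0.58 for Osiris genes, or 4.12 and 0.92 relative to all genes. Tweedle genes called higher rose by 1.62 (Twdlalpha) to 5.18 (TwdlL), among them Twdlbeta by 4.97 (SE 1.35, limma adjusted p = 0.020), TwdlW by 4.79 (SE 1.01, limma adjusted p = 0.0039) and Tb by 3.55 (SE 0.98, limma adjusted p = 0.018). Osi2 rose by 3.20 (SE 0.73, limma adjusted p = 0.0047). TwdlF and TwdlP were not called, with changes of 2.72 and 1.43, and Osi7, Osi17 and Osi6 had -1.51, -1.55 and -0.34, the last of which was 0.13 under TMM scaling. Of the Cpr genes 29 of 42 were called higher, and of the cuticle building and tanning list 4 of 27. Over all genes 711 were called higher and 846 lower, a split that became 938 and 170 under TMM scaling, where the counts of both families called higher were again 18 and 1. Without 11-12 h the counts were 10 and 0, and without 13-14 h 2 Osiris genes were called higher. With a pseudocount of 0.1 RPM the Tweedle count was 9.

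From 14-17 h to 17-20 h most Osiris genes fell and the Tweedle genes divided. Of 14 Osiris genes 12 were called lower, beside 6.5% of all genes. Their family median was -3.82, or -3.53 relative to all genes. The 12 include Osi16, on 8, 6 and 3 reads in the windows from 14-15 h to 16-17 h. Osi9 fell by 6.34 (SE 0.95, limma adjusted p = 1.5e-04), Osi6 fell by 6.14 (SE 1.02, limma adjusted p = 5.4e-04), Osi7 fell by 6.08 (SE 0.91, limma adjusted p = 2.0e-04), Osi14 fell by 6.00 (SE 0.81, limma adjusted p = 5.1e-05) and Osi20 fell by 5.50 (SE 0.71, limma adjusted p = 3.8e-05). Osi2 and Osi5 were not called, with changes of -2.13 and -1.25.

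Of the 20 Tweedle genes, 6 were called lower at this step (TwdlF, TwdlG, TwdlQ, TwdlT, TwdlU and Tb) and 3 higher (TwdlN, TwdlP and Twdlalpha), beside 4.46% of all genes called higher. TwdlF fell by 6.09 (SE 1.11, limma adjusted p = 0.0017) and Tb fell by 3.57 (SE 0.98, limma adjusted p = 0.022), a call that Tb lost under TMM scaling (limma adjusted p = 0.054) and with edgeR and DESeq2. TwdlN rose by 2.95 (SE 0.76, limma adjusted p = 0.014), TwdlP by 3.21 (SE 0.65, limma adjusted p = 0.0021) and Twdlalpha by 2.60 (SE 0.43, limma adjusted p = 3.1e-04). The family median was -1.11, or -0.82 relative to all genes. Of the Cpr genes 11 of 42 were called higher and 4 lower, and of the cuticle building and tanning list 2 of 27 were called higher and 7 lower. Over all genes 425 were called higher and 620 lower, and 634 and 259 under TMM scaling. Tests on recovered reads called 3 Tweedle genes lower with edgeR and 3 with DESeq2, and the Osiris count was 10 with each and 9 to 13 with any single window left out.

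From 17-20 h to 20-23 h most Tweedle genes had lower values, and 6 of 20 were called lower (TwdlB, TwdlC, TwdlE, TwdlM, TwdlV and TwdlY), beside 1.07% of all genes. The family median was -2.48, or -2.52 relative to all genes, and 18 of the 20 values were negative. TwdlC fell by 4.29 (SE 1.10, limma adjusted p = 0.038) and TwdlM fell by 3.83 (SE 0.96, limma adjusted p = 0.034). TwdlN had a change of -0.17 and Twdlalpha 1.29, neither called. By then the Osiris genes were low, and limma called 0 of 14 in either direction, beside 1.72% of all genes called higher, with 0 at an unadjusted p below 0.05. On recovered reads edgeR and DESeq2 also called 0, with 2 and 1 lower at an unadjusted p below 0.05. Over all genes 164 were called higher and 102 lower, and 150 and 143 under TMM scaling. The Tweedle count was 1 without any of 17-18 h, 21-22 h or 22-23 h, without the libraries under 600000 reads and with edgeR, 10 without 13-14 h, and 0 with a pseudocount of 0.1 RPM.

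**Figure D4:**
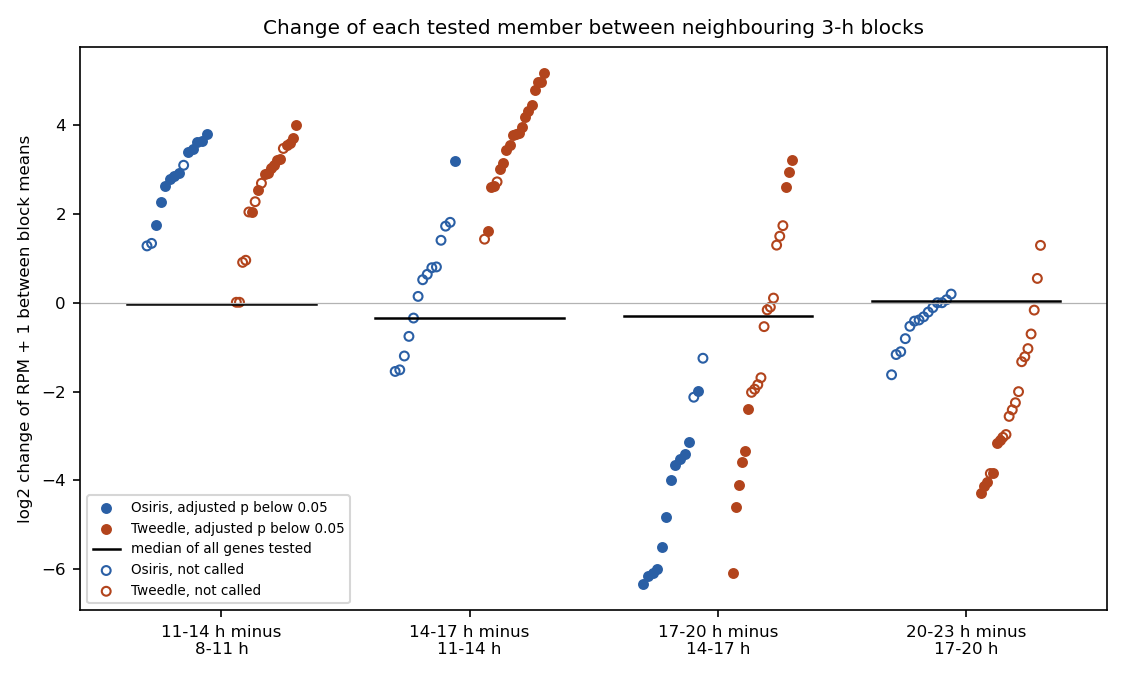
Each point is the log2 change of RPM + 1 of 1 member between the means of neighbouring blocks of 3 windows, Osiris in blue and Tweedle in red, filled where the adjusted p is below 0.05, and black lines mark the median of the 9538 genes tested. At the step from 11-14 h to 14-17 h Tweedle genes lie between 1.43 and 5.18 and Osiris genes between -1.55 and 3.20, and at the step from 14-17 h to 17-20 h all 14 Osiris genes lie below 0 while Tweedle genes spread from -6.09 to 3.21.

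By the median over pairs, profiles were more alike within families than between them, but single members departed from this. Over the 23 windows, Pearson's r of log2(RPM + 1) had a median of 0.90 over the 66 pairs of described Osiris genes (0.37 to 0.98), 0.81 over the 190 Tweedle pairs (0.03 to 0.99) and 0.55 over the 240 pairs between families (-0.37 to 0.97). These pairs share the libraries and their depths, so the values are a description. Osi6 and Osi7 formed the closest Osiris pair (0.98), TwdlB and TwdlL the closest Tweedle pair (0.99), and Osi15 and TwdlF the closest pair between families (0.97). The lowest value between families was that of Osi7 and Twdlalpha (-0.37). Osi2 had an r of 0.57 (Twdlalpha) to 0.96 (TwdlW) with Tweedle genes, and 0.37 (Osi17) to 0.80 (Osi15) with the other Osiris genes. TwdlF had 0.76 (Osi17) to 0.97 (Osi15) with Osiris genes, and 0.12 (Twdlalpha) to 0.88 (TwdlE) with the other Tweedle genes.

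All 17 Osiris genes and 17 of 23 Tweedle genes lie on 3R, with 4 Tweedle genes on X and 1 each on 2L and 2R. In coordinates of release 5 (dm3), the TSCs of 16 Osiris genes span chr3R:2024521-2165825, a run of 141 kb in which all 16 are on the plus strand, while Osi23 lies elsewhere on 3R. The run also holds the TSCs of 4 other genes with a row, CG15594, CG15597, FBgn0037417 and Gasp, a chitin-binding gene of the cuticle list. Tweedle genes formed 3 tight groups, TwdlU, TwdlF, TwdlG and TwdlV at chr3R:70212-80444, 8 genes from TwdlM to TwdlD at chr3R:22444759-22465881, and TwdlX, TwdlY, TwdlZ and Twdlalpha at chrX:16625120-16636932.

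Some neighbours in a group were alike in level and timing and others were not. TwdlB and TwdlL lie 2.07 kb apart, with maxima that differed 1.24-fold and mean times of 17.9 and 18.1 h, and Osi6 and Osi7 differed 1.52-fold in maximum. The TSC of TwdlU lies 2.31 kb from that of TwdlF, and its maximum was 38.3 RPM against 23185 RPM, a 606-fold difference, with r = 0.85 between their profiles. TwdlK (1.22 RPM) and TwdlN (2214 RPM) lie 3.02 kb apart, and TwdlZ and Twdlalpha lie 4.72 kb apart with mean times of 16.8 and 20.5 h. In the Osiris run the maxima spanned 2.28 to 2486 RPM. Osi2, which lies between Osi24 and Osi3, had a mean time of 16.5 h against 13.6 h for each of them, and an r of 0.47 with each. Reads that fit several family members could be split between them in ways that the sources used here do not describe, so low values beside a strong paralog are uncertain.

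The authors had assigned 28 TSCs in all to each family. A single TSC was found in 18 of 23 Tweedle genes and 10 of 17 Osiris genes, beside 56.7% of all genes. In the Tweedle genes with several, the strongest TSC held at least 95.3% of reads, and only TwdlM and TwdlC had another that reached 10 RPM (21.5 and 24.8 RPM, 658 and 1155.5 bp downstream between midpoints). In the Osiris genes 10 of 11 additional TSCs lay downstream of the strongest, by 894.5 to 2244.5 bp, and 7 additional TSCs reached 10 RPM, in Osi6, Osi7, Osi14, Osi15 and Osi17.

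Osi6 had the additional TSC with the highest RPM. Of its 3 TSCs the main one, at chr3R:2060373-2060446, held 62.7% of reads and reached 1118 RPM, and the next, 1388.5 bp downstream at chr3R:2061637-2061959, held 36.9% and reached 519 RPM, both at 14-15 h. The downstream share was 29.3% at 11-12 h (Wilson interval 26.6 to 32.1%) and 52.4% at 13-14 h (interval 50.4 to 54.4%). It was 31.7% and 26.3% in the 2 windows that followed, with intervals of 28.8 to 34.7% and 24.7 to 27.9%. At 10-11 h the share was 53.3% and at 12-13 h 42.3%, so it moved up and down by more than its counting error with no steady trend, and with 1 library a window the variation between libraries is unknown. Osi7 had its main TSC at chr3R:2074718-2074736 with 88.1% of reads, and 4 downstream TSCs, of which 3 passed 10 RPM, with 8.08%, 1.97% and 1.70% of reads and maxima of 183, 40.4 and 35.7 RPM. The downstream TSCs of Osi14 and Osi15 held 6.21% and 6.10% of reads.

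Osi17 divided its reads between 2 TSCs, at chr3R:2137470-2137494 and chr3R:2141004-2141031, with 48.6% and 51.4%. The upstream TSC held 25.6% of reads at 10-11 h (Wilson interval 14.6 to 41.1%) and 59.5% at 13-14 h (interval 52.6 to 66.1%). Its share was 22.2% at 15-16 h (interval 12.5 to 36.3%). The share at 13-14 h was thus above that at both of these times beyond counting error, on 39, 200 and 45 reads. It was 69.0% and 52.0% at 11-12 h and 14-15 h, on 29 and 25 reads. At 12-13 h the gene had only 19 reads, of which the downstream TSC held 14. The upstream share thus moved up and down with no steady trend, and the variation between libraries is unknown.

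**Figure D5:**
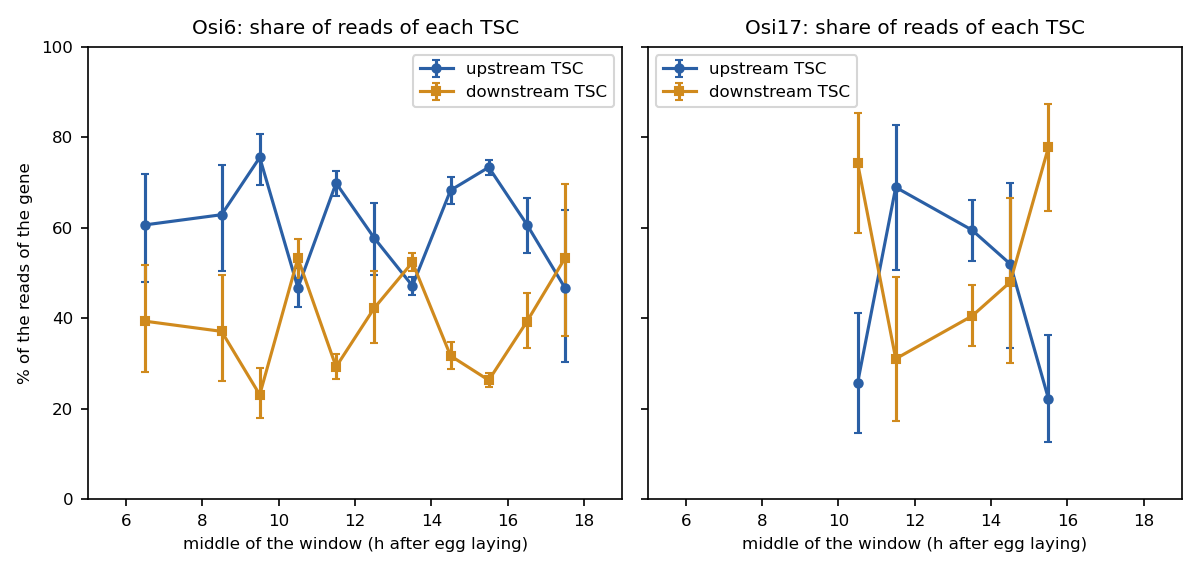
The share of the reads of Osi6 (left) and Osi17 (right) held by the upstream TSC (blue circles) and the downstream TSC (orange squares) is plotted against the middle of the window, for windows with at least 20 reads of the gene, with 95% Wilson intervals. In Osi6 the downstream share moves between 23.1% and 53.3%, and in Osi17 the upstream share is 59.5% at 13-14 h and 22.2% at 15-16 h.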

How the data were processed

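RAMPAGE 5'-end sequencing of whole embryos gave 23 libraries, 1 per window, barcoded at reverse transcription, pooled and sequenced together. Per the labels and the methods of the study, the authors mapped reads to dm3 with STAR, called TSCs jointly over the libraries and assigned them to genes. The deposited values are RPM per TSC and per gene, which are sums of the TSCs (10622 of 10622 gene rows), and a deposited BED list of TSCs gave their positions. How multi-mapped reads and PCR duplicates were treated is not given in the sources used here. A deposited table aligned across species was not used. RPM values were whole multiples of 1 read for 100% of values (tolerance 0.01 reads), so reads were recovered. TSCs of no gene (0.337 to 0.806% of reads) stayed in the library totals.

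Genes with a mean of at least 1 RPM were fitted on log2(RPM + 1) with limma 3.58.1 in R 4.3.3 and Benjamini-Hochberg adjustment at 0.05, once as a spline with 4 degrees of freedom over age and once as blocks of 3 windows. With 1 library a window, p-values measure only the spread between these libraries around the fit. On simulated data gradual changes were recovered by the spline, but a pulse of 3 windows in a flat gene was not, and block contrasts were used for those. Alternatives were TMM scaling, pseudocounts of 0.1 and 5 RPM, other filters, splines of 3 and 6 degrees of freedom, edgeR 4.0.16 and DESeq2 1.42.0 on recovered reads, thinning, and leaving out libraries. Intervals are Wilson for shares and exact for RPM. Members named with values were the 6 most abundant of each family, Tb, the 2 earliest and the 2 latest of each family, and those with several TSCs of at least 10 RPM. Other members named with a value were chosen after their values were seen. Promoter and protein sequences were not used here. Members and lists were chosen with earlier results of these data known.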

Additional observations from a re-analysis of the deposited data

How the results depend on the processing

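Each window was 1 library and another replicate series of the study was not used here, so the spread between embryo collections was not measured, and the 4 libraries under 600000 reads limit low genes most. No paired analysis was possible because no window has a replicate. Of the called changes of the members named in full, none reversed under any alternative, with 713 values that kept the call and 128 that lost it. TMM scaling turned the sign of the all-gene median at 3 of the 4 steps and that of Osi6 at 14-17 h, which was not called, as given above with the splits of all genes. Counts of calls stayed within 1.5 times of those reported except as follows. The causes were not tested, except that filterByExpr, which asks for 10 reads in most windows, left 1 of the 34 members to test.

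Under filterByExpr the change with time was called for 1 Tweedle gene and 4633 genes in all, and the 4 block steps called 69, 590, 223 and 5 genes, with 0 Tweedle genes higher at each of the first 2 steps, 0 higher and 1 lower at the next and 0 lower at the last. With a pseudocount of 0.1 RPM the steps called 379, 920, 600 and 38 genes, 6 Tweedle and 3 Osiris genes higher at the first, 9 Tweedle genes higher at the next, 1 higher from 14-17 h to 17-20 h and 0 lower at the last. With 5 RPM the last step called 448 genes, and 2 Osiris genes were higher at 14-17 h. Without a filter that Osiris count was 3. On thinned reads the steps called 457, 639, 564 and 128 genes, 3 and 2 Osiris genes higher at the first 2, 1 Tweedle gene higher at 17-20 h and 2 lower at the last. With edgeR and DESeq2 the step to 17-20 h called 622 and 668 genes (3 Tweedle genes lower with each) and the last 70 and 135, with 1 Tweedle gene lower with edgeR. Without the shallow libraries these steps called 599 and 128 genes, with 1 Tweedle gene lower at the last, and the median highest Osiris window started at 13 h in place of 14 h. With TMM library sizes the highest Tweedle share was 4.07% and the highest Osiris share 0.439%.

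With any single library left out, the first step called 323 to 1122 genes, 1 to 13 Tweedle and 2 to 12 Osiris genes higher. The next called 610 to 1787 genes, 10 to 19 Tweedle and 0 to 2 Osiris genes higher. The step to 17-20 h called 444 to 1188 genes, 2 to 3 Tweedle genes higher, 4 to 8 lower and 9 to 13 Osiris genes lower. The last called 63 to 403 genes and 1 to 10 Tweedle genes lower.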
